A study of Rattus norvegicus with 6 samples.

Results

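Splicing factors and heterogeneous nuclear ribonucleoproteins (hnRNPs, proteins that coat nascent transcripts) were compared between diabetic and normal rat hearts, in tissue of the left ventricle. The genes were taken by name, as every gene whose single symbol in the array's annotation starts with Srsf, Hnrnp, Sf3, Snrp, Rbm, Celf, Mbnl or Rbfox. This gave 107 probe sets for 73 genes, of 10411 named genes on the array, and each gene was read from its brightest probe set by the mean over 6 arrays. Another 10 probe sets that carry several gene symbols, among them those for Hnrnpk, Srsf3, Snrpc and Snrpg and 2 for Snrpn, were left out. Total RNA from 3 rats labelled normal and 3 labelled diabetic was hybridised to Affymetrix arrays in a single colour, each heart to its own. The labels give no strain, sex, age or genotype, and do not say how diabetes was produced or how long it lasted, so the model cannot be described further. By the design text each array is a different rat.

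A pre-mRNA becomes an mRNA in the spliceosome, which is built from small nuclear ribonucleoproteins (snRNPs) on each intron. Regulators that bind the transcript decide which exons are kept. SR proteins mostly promote exon inclusion and hnRNPs often oppose it, while CELF and MBNL proteins switch many heart exons between their fetal and adult forms. The working heart depends on such choices in the transcripts for titin, the calcium handling proteins and the insulin receptor. The array reports the amount of a transcript, mostly near its end, not which exons it holds.

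No transcript in this group passed the test for a difference between diabetic and normal ventricles. Of the 73 genes, 63 lay above the filter on dim probe sets and were tested, and 0 had a Benjamini-Hochberg adjusted p under 0.05 with limma, where 2.88% of all tested probe sets did (1.5% higher and 1.38% lower). At an unadjusted p under 0.05 there were 4 genes, 2 higher and 2 lower in diabetes, which is 6.35% of those tested against 19.9% of all probe sets (9.54% higher and 10.3% lower). The 4 were Rbm42 and Rbm25 on the higher side and Hnrnpc and Celf1 on the lower. The array is of whole ventricle, in which fewer cells of a type and less RNA per cell cannot be told apart.

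The differences were small in size. The log2 fold changes (diabetic minus normal, on the scale of log2(signal + 16)) ran from -0.49 to 0.48 with a median of 0.02, against -2.89 to 3.34 with a median of -0.01 over all tested probe sets. The median absolute log2 fold change was 0.13 in the group and 0.20 over all tested probe sets. None of the 63 genes exceeded 0.5 in either direction, where 14.1% of all tested probe sets did. The 95% intervals of all 63 genes lay within a 2-fold difference (log2 between -1 and 1), as did 87.1% of intervals over all tested probe sets, and 25 of the 63 lay within 0.5. The other intervals allow a difference over 0.5, and a missed threshold does not show that the levels were the same. Spread between replicates was similar to that of the array as a whole, with a median pooled SD within groups of 0.187 on the log2 scale against 0.214.

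**Figure D1:**
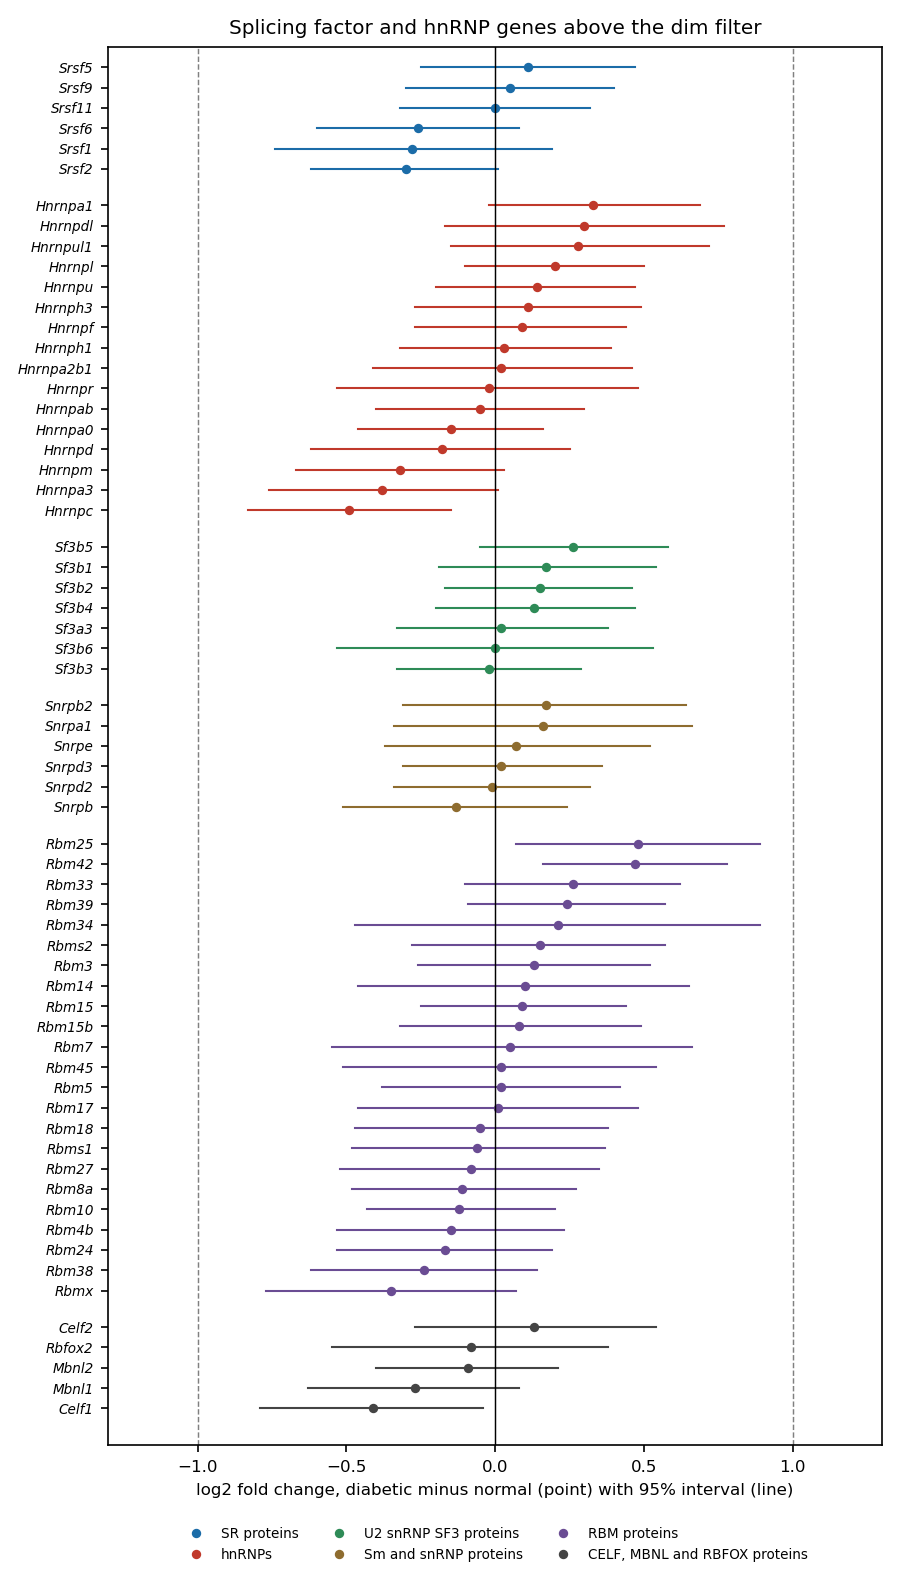
Log2 fold change (diabetic minus normal, point) with its 95% interval (line) for each of the 63 tested genes, coloured by family and ordered by value within it, with dashed lines at a 2-fold difference. Every point lies between -0.49 and 0.48, and no interval reaches a dashed line.

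**Figure D2:**
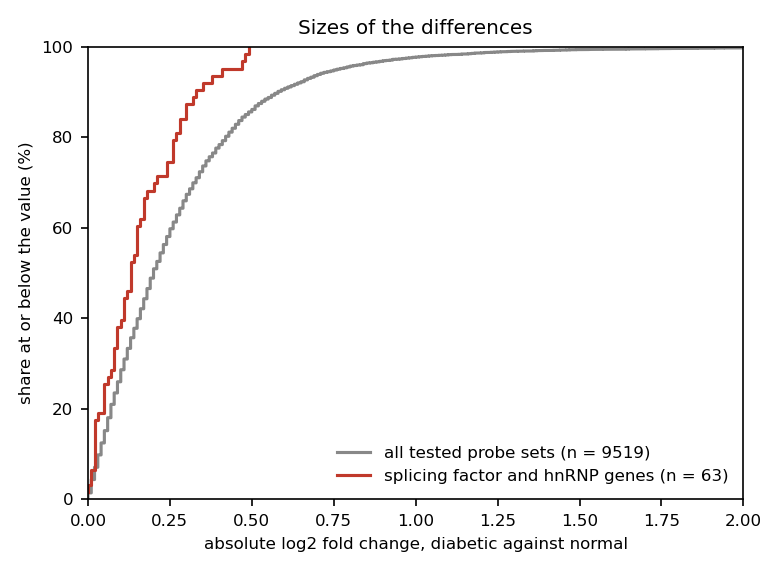
Cumulative share of features (vertical axis, percent) at or below a given absolute log2 fold change (horizontal axis) for the 63 genes and for all 9519 tested probe sets. The curve of the 63 genes ends below 0.5, while 14.1% of all tested probe sets lie beyond it.

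Rbm42, an RNA-binding protein known to associate with hnRNP K, had the smallest p of the group. Its signal was 886, 860.0 and 908 in the normal arrays and 1182, 1325 and 1191 in the diabetic ones. All 3 diabetic arrays lay above all 3 normal ones. The means were 885 ± 23.8 and 1233 ± 80.05 (SD, n = 3). The difference on the log2 scale was 0.47 ± 0.14 (SE, limma adjusted p = 0.101). With each array left out the value stayed at 0.42 to 0.50 on the log2 scale. Hnrnpc, which binds uridine tracts in nascent transcripts and keeps them from being used as splice sites, had the smallest p on the lower side. Its signal was 1917, 2008 and 1959 in normal and 1512, 1198 and 1481 in diabetic arrays. The groups did not overlap, and diabetic 2 was the lowest array. Its log2 fold change was -0.49 ± 0.15 (SE, limma adjusted p = 0.113) and ran from -0.55 to -0.39 with each array left out. Across all alternatives the lowest limma adjusted p was 0.0523 for Rbm42 and 0.0514 for Hnrnpc, so neither fell under 0.05 in any of them.

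The start regions of these 2 genes are shown because they had the smallest p in each direction. Each runs from 250 bases before to 50 after the annotated start, 5′ to 3′ on the gene's own strand, from RefSeq on build GRCr8. Both genes lie on the minus strand, Rbm42 with its window at chr1:95035931-95036230 and Hnrnpc at chr15:27282666-27282965. Capitals mark the letters of 5 motifs searched on both strands, CCAAT (the CCAAT box), GGGCGG (the GC box), CCGGAAG (an ETS core), TATAAA (the TATA box) and TGACGTCA (a cAMP response element). Hits that overlap are marked as 1 run.
Rbm42: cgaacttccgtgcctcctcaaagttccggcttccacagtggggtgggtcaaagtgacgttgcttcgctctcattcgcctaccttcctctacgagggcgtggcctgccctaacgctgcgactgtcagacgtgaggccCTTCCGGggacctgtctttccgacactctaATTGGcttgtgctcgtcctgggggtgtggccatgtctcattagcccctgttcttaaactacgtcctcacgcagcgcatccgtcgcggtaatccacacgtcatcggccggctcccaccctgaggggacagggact
Hnrnpc: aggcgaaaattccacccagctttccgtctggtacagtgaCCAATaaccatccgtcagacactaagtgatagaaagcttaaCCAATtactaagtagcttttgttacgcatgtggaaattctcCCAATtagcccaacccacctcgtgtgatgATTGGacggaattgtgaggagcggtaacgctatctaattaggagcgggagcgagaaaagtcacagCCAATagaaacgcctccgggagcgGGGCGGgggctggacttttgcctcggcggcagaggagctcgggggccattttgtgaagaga
The Rbm42 window held 1 CTTCCGG, the reverse complement of the ETS core, and 1 ATTGG, the reverse complement of the CCAAT box. The Hnrnpc window held 5 CCAAT boxes (4 as CCAAT and 1 as ATTGG) and 1 GGGCGG.

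Of the 73 genes, 66 matched a start region in the RefSeq table by symbol. Their windows had a median GC content of 61.0% and a median of 24 CpG dinucleotides, against 51.7% and 7 over the 33469 windows of the table. A CCAAT box was found in 34 of the 66 (51.5%, against 37.5% of all windows) and a GC box in 36 (54.5%, against 33.1%). The ETS core was found in 15 (22.7%, against 8.75%), the TATA box in 6 (9.09%, against 14.2%) and the cAMP response element in 1 (1.52%, against 1.83%). These are matches of letters and were not tested. The group was counted with 1 window per gene, while every window of the table was counted, and GC content was not matched. The table's windows also include many genes that are not on the array.

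SR proteins carry RNA-recognition domains and a tail rich in arginine and serine, and recruit the spliceosome to exons. Of 7 SR protein genes, 6 were tested, with a median log2 fold change of -0.13. Srsf2, which binds exonic enhancers in the nuclear speckles, gave 2632, 2504.5 and 2739 in normal and 2289, 2131 and 1963 in diabetic arrays. Every diabetic array was below every normal one, and the log2 difference was -0.30 ± 0.14 (limma adjusted p = 0.271). Srsf6 averaged 1444 ± 134 in normal and 1202.5 ± 119 in diabetic hearts (SD, n = 3), and its arrays overlapped (log2 -0.26, adjusted p = 0.378). Srsf1, the founding SR protein, whose loss in the mouse heart disturbs splicing of a calcium-dependent kinase, was at 1063 ± 238 and 869 ± 155 (log2 -0.28 ± 0.21, adjusted p = 0.505). Its lowest array was diabetic 1, at 701, and its highest normal 3, at 1314.5. The second probe sets of these 3 genes had the same sign, at -0.18 for Srsf2, -0.38 for Srsf6 and -0.13 for Srsf1. Srsf5 was at 0.11 (adjusted p = 0.760), Srsf9 at 0.05 and Srsf11 at 0.00. Srsf10, an SR-like splicing repressor, lay below the filter, with signals of 54.4 to 133 over the 6 arrays.

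All 16 hnRNP genes were tested, and 9 had a positive log2 fold change (median 0.03, from -0.49 to 0.33). The groups did not overlap for 4 of them, with Hnrnpc, Hnrnpm and Hnrnpa0 lower and Hnrnpl higher in diabetes. That is 25% of the 16, close to the 25.7% of all tested probe sets. Hnrnpm, a splicing regulator, gave 310, 311 and 395 in normal and 247, 267 and 285 in diabetic arrays (log2 -0.32 ± 0.15, adjusted p = 0.287). Hnrnpl, which binds CA repeats, had the tightest replicates of the 63 genes, with a pooled SD of 0.04 on the log2 scale. It gave 2255, 2203 and 2239 in normal and 2491, 2676.5 and 2554 in diabetic arrays (log2 0.20 ± 0.13, adjusted p = 0.438). The limma SE is larger than those replicates alone would give, because the model shares the spread across probe sets. Hnrnpa0, chosen after its values were seen, was at 2018 ± 92.3 and 1815 ± 98.3 (log2 -0.15, adjusted p = 0.590).

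Hnrnpa1 and Hnrnpa3, close relatives that bind many introns and often silence exons, had log2 fold changes of opposite sign. Hnrnpa1 averaged 617 ± 82.3 in normal and 779 ± 72.9 in diabetic hearts (log2 0.33 ± 0.16, adjusted p = 0.283), and its 2 other tested probe sets were at 0.35 and 0.14. Hnrnpa3 was at 1816 ± 269 and 1397 ± 206 (log2 -0.38 ± 0.17, adjusted p = 0.268), with its other 3 at -0.37, -0.11 and -0.02. The difference between these 2 genes was not tested. Genes with many processed copies in the genome, such as Hnrnpa1, can share signal with those copies, so their values are uncertain. Hnrnpu, a chromatin-bound hnRNP that heart muscle needs, was at 0.14 ± 0.15 (adjusted p = 0.662), with its other probe sets at 0.36 and -0.12. Hnrnpdl gave 1709, 987 and 1521 in normal and 1572, 1741 and 1752 in diabetic arrays (log2 0.30 ± 0.21, adjusted p = 0.474). Normal 2 was its lowest array, and the groups overlapped.

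The SF3 proteins belong to the U2 snRNP, which finds the branch point of the intron. Of 8 such genes, 7 were tested, and 6 of the 7 had a positive log2 fold change, where 48% of all tested probe sets did. The median was 0.13, with a range of -0.02 to 0.26, and none of them passed. Sf3b5, a small subunit, gave 792, 710.2 and 695 in normal and 821.5, 893.5 and 931 in diabetic arrays (log2 0.26 ± 0.14, adjusted p = 0.339). Its groups did not overlap. Sf3b1, the large scaffold that clamps the branch point, was at 1470.3 ± 89.5 and 1672 ± 268 (log2 0.17 ± 0.16, adjusted p = 0.601) and at -0.06 at its other probe set. Sf3b2 was at 0.15 and 0.35 at its 2 probe sets (adjusted p = 0.620 and 0.216), and Sf3b4 was at 0.13. Sf3b3, Sf3a3 and Sf3b6 were at -0.02, 0.02 and 0.00, and Sf3a1 lay below the filter.

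The Sm proteins form the ring around each spliceosomal RNA, and the other Snrp genes encode proteins of single snRNPs. Of 8 such genes, 6 were tested, with log2 fold changes from -0.13 to 0.17 and a median of 0.05. Their groups overlapped in every case, where the groups did not overlap for 25.7% of all tested probe sets. By limma 0 of the 6 had an unadjusted p under 0.05, against 19.9% of all tested probe sets. With so few genes these counts say little about the family. Snrpb, a core Sm protein, averaged 1510.5 ± 249.5 in normal and 1365.5 ± 102 in diabetic hearts (log2 -0.13 ± 0.17, adjusted p = 0.712). Snrpe, another, was at 1513 ± 190.4 and 1613 ± 379 (log2 0.07 ± 0.20), with diabetic 3 the highest array, at 2003, and diabetic 1 the lowest, at 1247. Snrpb2 and Snrpa1, which pair with the U2 RNA, were at 0.17 and 0.16. Snrpn, a near copy of Snrpb, and Snrpa, of the U1 snRNP, lay below the filter. For Snrpn this holds for its single-symbol probe set only, as 2 others shared with Snurf were left out.

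The RBM genes are a mixed set named only for an RNA-binding motif. Of 25 such genes, 23 were tested, and 14 had a positive log2 fold change (median 0.02, from -0.35 to 0.48). The groups did not overlap for 4 of them (17.4%, against 25.7% of all tested probe sets). These 4 were higher in diabetes, as were 12.1% of all tested probe sets. Rbm25, a U1-associated factor that helps choose splice sites, gave 414.5, 331 and 480 in normal and 494, 575 and 656 in diabetic arrays. Its log2 fold change was 0.48 ± 0.18 (SE, limma adjusted p = 0.183), and it ran from 0.35 to 0.60 with each array left out. Rbm33 was at 451 ± 62.6 and 541 ± 46.1 (log2 0.26, adjusted p = 0.406), with its nearest arrays at 487 and 489. Rbm39, an SR-like splicing coactivator chosen after its values were seen, was at 1714 ± 87.6 and 2031 ± 228 (log2 0.24 ± 0.15, adjusted p = 0.411). Its 3 other probe sets were at 0.30, 0.05 and -0.03. Rbmx, also known as hnRNP G, had the lowest value of the family (log2 -0.35 ± 0.18, adjusted p = 0.331). Its diabetic arrays were close together, at 297.5 to 308, while its normal arrays ran from 301 to 489.

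Rbm24, a splicing regulator made mainly in heart and skeletal muscle, gave 3949, 4340 and 4554 in normal and 4132, 4147 and 3202 in diabetic arrays. The groups overlapped, and only diabetic 3 lay below the normal range (log2 -0.17 ± 0.16, adjusted p = 0.608, and -0.05 without diabetic 3). Its other tested probe set was at -0.19. Its close relative Rbm38, which controls mRNA stability and splicing, was also lowest in diabetic 3, at 1203 against 1545 and 1747.5 in the other 2 diabetic arrays and 1702 to 1790 in normal ones (log2 -0.24, adjusted p = 0.466). Rbm3, which is induced by cold, was at 0.13 (adjusted p = 0.727). Rbm8a, a core member of the exon junction complex, was at -0.11, and Rbm5, a regulator of apoptotic splice forms, at 0.02. Rbm20, the main splicing factor of titin, was not analysed here. The replicate spread was widest in Rbm34, Rbm7 and Rbm14, with pooled SDs of 0.50, 0.43 and 0.38 on the log2 scale.

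Of 9 CELF, MBNL and RBFOX genes, 5 were tested, and 4 of the 5 had a negative log2 fold change (median -0.09). Celf1, which binds GU-rich elements and is high in the fetal heart, gave 974, 972 and 1303 in normal and 763, 771 and 877 in diabetic arrays. The groups did not overlap (log2 -0.41 ± 0.17, limma adjusted p = 0.207). Normal 3 stood above the other normal arrays, and without it the difference was -0.27. The other Celf1 probe set was at 0.04 (adjusted p = 0.929), so the 2 probe sets of this gene differed in sign. Their 95% intervals overlapped (-0.79 to -0.04 and -0.39 to 0.48), and the difference between them was not tested. Mbnl1, which opposes CELF proteins on many exons, averaged 2637 ± 168 in normal and 2190.0 ± 311 in diabetic hearts (log2 -0.27 ± 0.16, adjusted p = 0.372). Mbnl2 was at 2529 ± 131 and 2371 ± 75.8 (log2 -0.09 ± 0.14, adjusted p = 0.767), with an interval of -0.40 to 0.21. Rbfox2, which controls muscle exons, was at -0.08 ± 0.20 (adjusted p = 0.869). Celf2 was at 0.13 (adjusted p = 0.736). Rbfox1, Rbfox3, Celf4 and Celf5 lay below the filter, and Rbfox1 gave signals from 7.0 to 80.3.

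**Figure D3:**
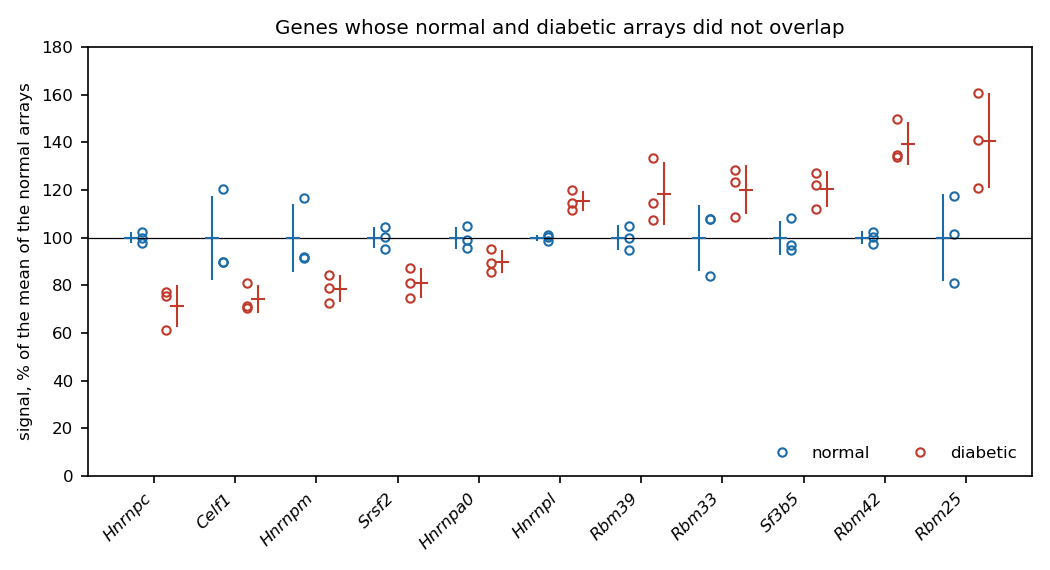
Signal of the 11 genes whose normal and diabetic arrays did not overlap, as a percent of the mean of the normal arrays. Circles are single arrays, and bars beside them give the mean ± SD of 3 arrays. In diabetes 5 genes lie below and 6 above the normal arrays, with Hnrnpc the lowest and Rbm25 the highest on the log2 scale.

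In all, the groups did not overlap for 11 of the 63 tested genes (17.5%), 6 higher and 5 lower in diabetes, where they did not overlap for 25.7% of all tested probe sets (12.1% higher and 13.6% lower). An exact permutation test of a single gene cannot go below p = 0.1 with 3 arrays in each group. The difference between group means was larger than the pooled SD of the replicates for 24 of the 63 genes (38.1%), against 48.3% of all tested probe sets.

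The arrays of 1 group differed among themselves in this gene group. Diabetic 3 was the highest of the 6 arrays for 16 of the 63 genes (25.4%, against 17.5% of all tested probe sets), and diabetic 1 was the lowest for 19 (30.2%, against 17.7%). Normal 3 was the highest for 18 (28.6%, against 20.4%). Relative to each gene's mean over the 6 arrays, the median gene stood at 0.084 in diabetic 3, -0.044 in diabetic 1 and 0.061 in normal 3 on the log2 scale. Over all tested probe sets the array medians stayed between -0.017 and 0.014. The median log2 fold change of the 63 genes was 0.08 without diabetic 1 and -0.05 without diabetic 3, and it was -0.02 without normal 1, so its sign depended on single arrays.

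**Figure D4:**
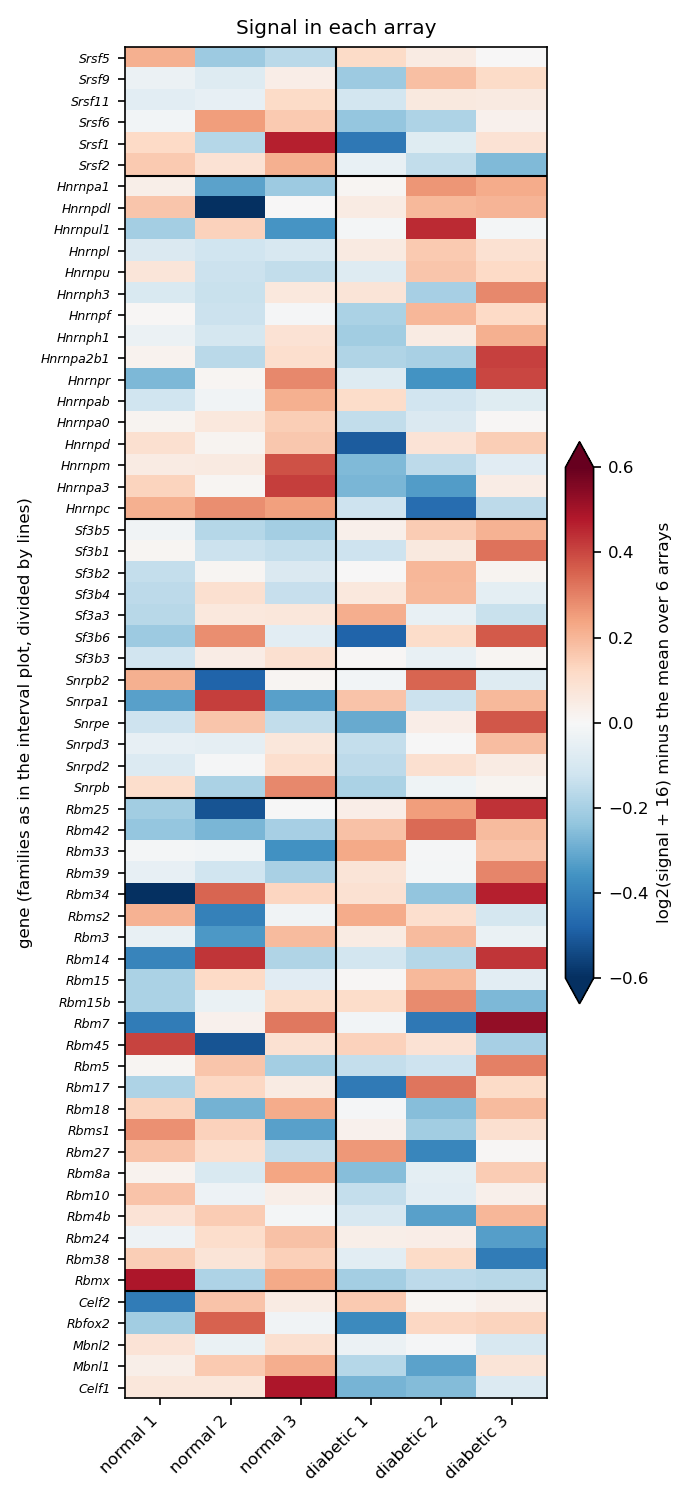
Log2(signal + 16) minus the mean over 6 arrays for the 63 tested genes (rows, families divided by lines) in each array (columns); red is above and blue below the gene's mean. Diabetic 1 is the lowest array for 19 genes and diabetic 3 the highest for 16.

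Several genes were read by more than 1 probe set. Of the 17 genes with 2 or more tested probe sets, 9 had the same sign at each and 8 had mixed signs, and no probe set passed. The widest spread was that of Celf2, whose 3 probe sets were at 0.51, 0.13 and -0.25 on the log2 scale. Its probe set at 0.51 gave 419, 258.5 and 354 in normal and 391, 554 and 532 in diabetic arrays (adjusted p = 0.220), and the groups overlapped. Hnrnpdl came next, at 0.30 and -0.40. Probe sets of a gene can read different transcript ends, and whether that bears on these spreads was not tested.

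**Figure D5:**
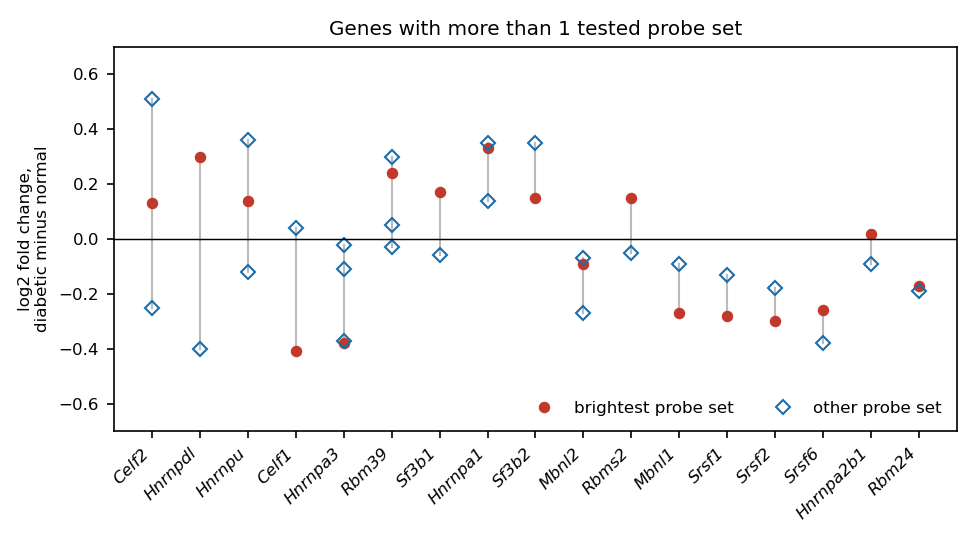
Log2 fold change (diabetic minus normal) of every tested probe set of the 17 genes with more than 1, ordered by spread; filled circles are the brightest probe set of each gene and open diamonds the others. Celf2 has the widest spread, from -0.25 to 0.51, and 8 genes have probe sets on both sides of 0.

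Other parts of the splicing machinery were taken from lists of genes outside the name rule. Of 49 tested spliceosome and branch-site factors, 2 rose and 0 fell (4.08% called, against 2.88% of all tested probe sets), with a median log2 fold change of 0.11. Bud31, a component of the activated spliceosome, gave 1651, 1614 and 1341 in normal and 3357, 3682 and 3750.4 in diabetic arrays. All diabetic arrays were above all normal ones, a rise of 2.34-fold (log2 1.22 ± 0.15, limma adjusted p = 0.00618). It passed with any 1 array left out, at 1.13 to 1.28, but not without the filter on dim probe sets (adjusted p = 0.0660). Cdc40, which acts at the second step of splicing, gave 93.1, 151.5 and 84.7 in normal and 242, 243 and 211 in diabetic arrays (log2 1.01 ± 0.20, adjusted p = 0.0377). Its call was lost without normal 1 or 3 or any of the diabetic arrays, at an adjusted p of up to 0.124, and without the filter (0.175). Its normal arrays averaged 110, under the filter's limit of 113, so Cdc40 was tested only through its high diabetic arrays. Its call, counted in the 4.08%, therefore gives little support.

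None of 27 tested sequence-specific regulators and hnRNP-like proteins passed with limma. At an unadjusted p under 0.05 by limma there were 2 (7.41%, against 19.9% of all tested probe sets). Cirbp, a cold-inducible relative of Rbm3, gave 214, 139.5 and 178 in normal and 400, 280.3 and 272 in diabetic arrays. Its groups did not overlap (log2 0.78 ± 0.20, adjusted p = 0.0793). Tardbp, which represses cryptic exons, was at 437 ± 64.9 and 264 ± 114 (log2 -0.77 ± 0.28, adjusted p = 0.174), with overlapping arrays, and Dazap1 was at 0.29 (adjusted p = 0.298). Of 19 tested splicing kinases and exon junction genes, 0 passed with limma and 1 had an unadjusted p under 0.05 (5.26%, against 19.9%). That gene was Srrm1, a coactivator rich in serine and arginine (log2 0.45 ± 0.15, adjusted p = 0.133, and 0.22 at its other probe set). Srpk2, a kinase of SR proteins, was at -0.30 (adjusted p = 0.373) and at 0.01 at its other probe set, and Ppp1r8 at 0.36 (adjusted p = 0.433). Over these 3 lists together, 2 of 95 tested genes passed (2.11%, against 2.88% of all tested probe sets), and the median was 0.08. The 2 include Cdc40, which passed the filter only through its diabetic arrays.

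Among 21 tested heart transcripts known as targets of these factors, read here only as the amount of transcript, 1 rose and 0 fell (median -0.12). That is 4.76% called, against 2.88% of all tested probe sets. By limma 7 had an unadjusted p under 0.05, 2 higher and 5 lower, which is 33.3% against 19.9% of all tested probe sets. Insr, the insulin receptor, whose alternative exon is governed by CELF and MBNL proteins, gave 193, 152 and 184 in normal and 344, 360.4 and 312 in diabetic arrays. The groups did not overlap (log2 0.89 ± 0.15, adjusted p = 0.0190). That call was lost without normal 2 or 3 or diabetic 2 (adjusted p of up to 0.0746) and without the filter (0.110). The 5 on the lower side, named with their values in view, did not pass the adjusted threshold. Fxr1, an RNA-binding protein of muscle, was at -0.62 ± 0.16 (adjusted p = 0.0722), and Tpm2, a tropomyosin, at -0.72 ± 0.19 (0.0817). Trdn, which anchors the calcium release channel, was at -0.67 ± 0.24 (0.158), the channel itself, Ryr2, at -0.49 ± 0.17 (0.155), and Mef2c, a muscle transcription factor, at -0.50 ± 0.16 (0.121). The groups did not overlap for any of the 5, which were picked by their p in the same arrays, so this adds no separate support. Over the 21 tested genes the groups did not overlap for 7 (33.3%, against 25.7% of all tested probe sets).

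All 11 ventricular cardiomyocyte markers measured were above the filter, and among them Myh7 rose and Myh6 fell (18.2% called, against 2.88% of all tested probe sets). Of 8 tested fibroblast markers, 4 fell (50%, against 1.38% of all tested probe sets), the matrix genes Col1a1, Col1a2, Col3a1 and Lum. Dcn, Fbln1, Pdgfra and Dpt did not pass, at log2 fold changes of -0.01, 0.02, -0.24 and -0.36. The summed signal of the 9 measured ran from 36139 to 40846 in normal and from 24150 to 24930 in diabetic arrays. The mean of Col3a1 alone went from 10058 in normal to 2579 in diabetic arrays. Of the other marker lists, Nppa among 4 atrial markers rose (25%) and Tie1 among 7 tested endothelial markers fell (14.3%). The share of all tested probe sets called was 2.88%. The endothelial markers went both ways, with Tie1 at -0.94 and Pecam1 at 0.68 (limma adjusted p = 0.147). Of the 7, 4 had a positive log2 fold change, and the median was 0.07. No gene passed among 6 smooth muscle, 4 leukocyte, 3 red blood cell and 1 adipocyte markers, where 2.88% of all tested probe sets did. All 5 neural markers lay below the filter. The part of these cell types in the values of the splicing factors was not tested. Pairs of arrays correlated at r = 0.967 to 0.974 within a group and at 0.937 to 0.959 between groups, across tested probe sets, which are not independent replicates. Of all 9519 tested probe sets 274 passed, and that count ranged from 100 to 202 with 1 array left out (100 without normal 3 or diabetic 2, 135 without diabetic 3 and 138 without normal 2).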

How the data were processed

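The values are linear signal intensities as the authors deposited them, and their software and normalization are not given in the sources. With 2% of values trimmed at both ends, each array had a mean of 500.2, and no further scaling was applied. No detection calls were used. Precision is limited by having 6 arrays. Names are those of the array's annotation (12783 probe sets with 1 gene, 312 with several, 2771 unnamed, and 57 controls left out). Updating them through the RefSeq rat gene table (GRCr8, the build also used for the start regions) changed 1 symbol. Probe sets whose mean log2(intensity + 16) over 6 arrays lay above the 40th percentile were tested (9519 of 15866). No tested gene of the group had a group mean under that limit, so none passed through 1 group alone. Cdc40, of the related lists, did pass through 1 group alone. The comparison was a two-sided limma fit (version 3.58.1, R 4.3.3) by lmFit and then eBayes, with no covariate and Benjamini-Hochberg adjustment over all tested probe sets. The code was tested on simulated data, with 50 planted changes of each size. It recovered 2% of planted log2 changes of 0.5, 68% of 1, 86% of 2 and 100% of 3. Differences as small as those of the group therefore mostly did not pass in the simulation. It gave 137 calls, 9 of them false, against 274 calls in the data, so its shares need not hold there. Figures were drawn with matplotlib 3.10.9.

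Named genes are the 4 smallest p of each of the 6 families, a panel of 16 known heart regulators, and the called or else 3 leading genes of each related list. Any other gene named was picked with its values in view. The members and lists were chosen with earlier results of these data known. The labels do not say that the replicate numbers in the titles pair the arrays, and the main fit did not pair them. Alternatives were other pseudocounts, scalings, filters, variance priors, array weights, a replicate block, leaving out single arrays, a looser threshold (0.1), and other probe sets or symbols.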

Additional observations from a re-analysis of the deposited data

How the results depend on the processing

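Under every alternative run, 0 of the splicing factor and hnRNP genes passed limma's threshold. These included the unfiltered fit with all 73, the dimmest probe set per gene and all 88 tested probe sets. An adjusted p under 0.1 was tried on the main fit only, where Rbm42 was at 0.101. Some other fits gave values under 0.1, such as 0.0523 for Rbm42 with the filter at the 60th percentile and 0.0514 for Hnrnpc with an intensity trend. The median log2 fold change of the group was -0.05 to 0.08 with each array left out. Of the values of the named members under the alternatives, 470 kept their sign and side of the threshold. Another 5 changed sign, all with 1 array left out and none of them called, namely Celf2 (-0.04 to 0.25 with each array left out), Rbfox2 (-0.21 to 0.09), Snrpb2 (-0.03 to 0.32) and Snrpe (-0.10 to 0.24), with Rbfox2 at 0.07 without normal 2 and 0.09 without diabetic 1. Over all tested probe sets, 274 passed, against 18 without the filter, 437 with a filter at the 60th percentile, 527 with an intensity trend and 674 at an adjusted p under 0.1; with 1 array left out 100 to 202 passed. Why these counts differ was not tested. Of the related genes of the 3 machinery lists, 2 passed, against 0 without the filter, 1 with the filter at the 60th percentile and 1 to 2 with 1 array left out. With the replicate number as a block, 183 of all probe sets, 0 members and 2 related genes passed. The labels do not say whether same-numbered arrays were paired. Deviations of same-numbered arrays correlated at 0.066, 0.014 and 0.016, and those of other pairs at -0.084 to 0.069. Such correlations cannot settle the pairing. Scaling by medians or quantiles changed no call of a member. Signal over background is unknown, which limits what can be said of the 10 genes under the filter.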
